A study of Mus musculus with 12 samples.

Results

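The RNA levels of 10 circadian clock genes were examined in the ear skin of mice injected with IL-17A, IL-36γ or both cytokines. The genes were Arntl, Clock, Npas2, Per1, Per2, Per3, Nr1d1, Nr1d2, Dbp and Tef, that is 10 of the 50684 genes in the count table, and all 10 were among the 19408 genes tested. They were picked by name with results of these libraries already known, so their differences between groups are given below as a description and without a test. Adjusted p-values are printed for a list of 20 other clock genes, but this list was also drawn up with earlier results known. These p-values carry the same limit and are a description as well. Tests are read for the variation inside the groups. RNA came from 1 part of the ear of female C57BL/6 mice aged 8 weeks, without separation of cell types. The ear pinnae received PBS, IL-17A, IL-36γ or IL-17A + IL-36γ by intradermal injection, at 1 µg of each cytokine in a volume of 5 µl, and the ears were taken after 4 days of treatment. PBS-injected ears served as the control, so all groups share the injection itself. Each group of the study held 5 mice, of which 3 were sequenced, giving 12 libraries of 25293468 to 34759293 counted reads. The hour at which the ears were collected is not given in the sources used here, and each mouse was sampled once.

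The mammalian clock is a transcriptional feedback loop that runs in most cells of the skin, including keratinocytes, fibroblasts and hair follicle cells. BMAL1, encoded by Arntl, pairs with CLOCK or its paralog NPAS2 and activates genes with E-box motifs, among them the Per, Cry, Nr1d1, Nr1d2 and Dbp genes. PER and CRY proteins then inhibit this pair, and the nuclear receptors REV-ERBα and REV-ERBβ, encoded by Nr1d1 and Nr1d2, repress Arntl through ROR elements. DBP, TEF and HLF activate genes with D-box motifs, which NFIL3 represses. In a running clock the RNA of Arntl is therefore high at times when that of Per2, Per3 and Dbp is low.

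The promoters were searched for these motifs to show which control elements lie next to the starts of the genes. RefSeq promoters of the build GRCm38.p6, which hold 250 bases before and 50 bases after an annotated start, were matched for 9 of the 10 genes, the exception being Per2. The E-box CACGTG was found in promoters of Per1 and Tef, 2 of these 9 genes, and it occurs in 8.09% of all 27025 genes with a promoter (7.15% of all 32851 promoters). The D-box, searched as TTATGTAA or TTACGTAA, was found in 1 of the 9 genes, Per3, which holds 2 copies, and occurs in 1.23% of all genes (1.06% of promoters). The ROR element, searched as TAGGTCA or TGGGTCA, was found in 1 of the 9 genes, Arntl, where it lies 30 bases after the start, and occurs in 7.35% of all genes (6.45% of promoters). Both strands were searched, and no promoter of these genes held more than 1 of the 3 motifs, so none overlap. A match is a run of letters and not a measured binding site. The 250 bases before the start are printed 5′ to 3′ for the members with a match there (the first of 2 entries for Per1 and for Tef) and for Ciart, a repressor described below with 3 E-boxes, and capitals mark the motifs.
Per1, chr11:69098699-69098948, plus strand: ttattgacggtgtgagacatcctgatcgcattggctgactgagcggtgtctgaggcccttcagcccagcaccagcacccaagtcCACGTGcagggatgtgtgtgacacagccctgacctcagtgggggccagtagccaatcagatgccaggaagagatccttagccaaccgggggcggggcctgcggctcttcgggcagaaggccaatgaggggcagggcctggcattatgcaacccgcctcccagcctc
Per3, chr4:151044666-151044915, minus strand: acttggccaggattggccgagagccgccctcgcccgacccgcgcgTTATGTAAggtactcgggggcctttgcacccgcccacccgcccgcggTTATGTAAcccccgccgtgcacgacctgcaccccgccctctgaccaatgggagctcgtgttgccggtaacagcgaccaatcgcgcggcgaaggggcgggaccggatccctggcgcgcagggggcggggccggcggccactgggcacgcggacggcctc
Tef, chr15:81802423-81802672, plus strand: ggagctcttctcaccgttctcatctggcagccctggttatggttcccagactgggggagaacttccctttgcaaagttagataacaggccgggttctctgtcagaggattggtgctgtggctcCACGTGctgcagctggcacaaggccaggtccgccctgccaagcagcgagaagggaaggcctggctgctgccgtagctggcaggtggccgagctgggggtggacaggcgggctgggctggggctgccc
Ciart, chr3:95882229-95882478, minus strand: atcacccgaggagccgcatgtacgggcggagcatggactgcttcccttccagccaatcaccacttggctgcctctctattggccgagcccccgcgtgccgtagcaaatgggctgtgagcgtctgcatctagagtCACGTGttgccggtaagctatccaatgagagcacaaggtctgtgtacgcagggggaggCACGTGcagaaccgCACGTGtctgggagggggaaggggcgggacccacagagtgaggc

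Across the 10 genes, 7 genes (the Per, Nr1d and D-box genes) had lower levels than the PBS ears in every cytokine group, while the activators varied with the cytokine. Arntl was higher with IL-17A and lower with both, and its IL-36γ libraries overlapped with PBS. Npas2 overlapped with PBS after IL-17A and was lower in the other 2 groups. Clock was slightly higher with IL-17A, a difference that depended on the scaling, and close to PBS with IL-36γ and with both. Levels are given as CPM, which are counts brought to a common library total after scaling by the trimmed mean of M-values (TMM), and in the order of replicates 1, 2 and 3. Between genes, levels are compared as RPKM, which divides by the exon length. In PBS ears Tef had the highest mean level with 41.1 RPKM, followed by Nr1d2 with 35.4, Dbp with 33.3 and Nr1d1 with 31.2. Per1 and Per3 had means of 18.2 and 18.1 RPKM, Clock 12.7, Per2 6.32, Arntl 4.21 and Npas2 1.05. Differences between groups are log2 differences with their standard error (SE) from 1 model of all 12 libraries. In such unseparated ear tissue, fewer cells of a type and less RNA per cell cannot be told apart.

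**Figure D1:**
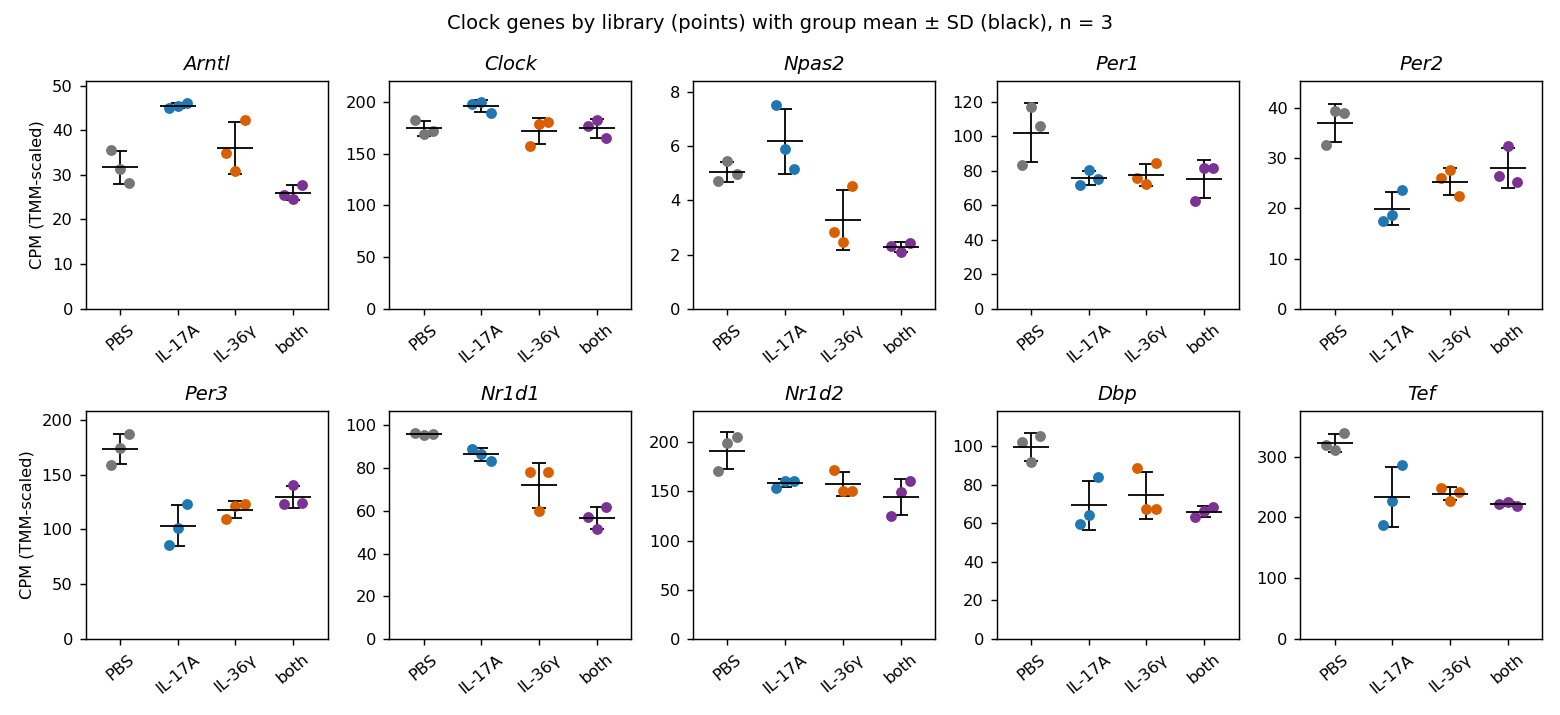
CPM of the 10 clock genes on linear axes that start at 0, with 1 point per library, the group mean as a black line and the SD as a bar. Arntl was highest in the 3 IL-17A libraries (45.0 to 46.1 CPM), where Per2 was lowest on average (mean 19.9 CPM), and the 3 IL-17A + IL-36γ libraries had the lowest Arntl, Npas2 and Nr1d1 means.

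The activator Arntl (ENSMUSG00000055116, chr7:113207465-113314126 of GRCm38, plus strand) was higher after IL-17A alone and lower after the combination. It had 35.5, 31.3 and 28.2 CPM in PBS ears, 45.0, 45.3 and 46.1 in IL-17A ears, 34.8, 30.8 and 42.2 in IL-36γ ears and 25.5, 24.6 and 27.8 in IL-17A + IL-36γ ears. All 3 IL-17A libraries therefore lay above all others, all 3 IL-17A + IL-36γ libraries lay below all others, and PBS and IL-36γ overlapped. The means were 31.7 ± 3.65 CPM in PBS, 45.5 ± 0.586 in IL-17A, 35.9 ± 5.82 in IL-36γ and 26.0 ± 1.64 in IL-17A + IL-36γ (SD, n = 3). Against PBS the log2 difference was 0.52 (SE 0.11) with IL-17A, 0.18 (SE 0.11) with IL-36γ and -0.29 (SE 0.11) with both. Without PBS replicate 1, the PBS library highest in Arntl, the difference with both was -0.20.

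Npas2 (ENSMUSG00000026077, chr1:39193731-39363236, plus strand), which can stand in for CLOCK as partner of BMAL1, had the largest difference from PBS of any member, in the combination. Its level was low, with 4.71, 5.46 and 4.97 CPM in PBS, 7.51, 5.88 and 5.15 in IL-17A, 2.83, 2.47 and 4.54 in IL-36γ, and 2.30, 2.08 and 2.44 in IL-17A + IL-36γ. PBS and IL-17A overlapped, IL-36γ lay below both, and the combination lay below IL-36γ by a narrow margin. Compared with PBS, the log2 difference was 0.29 (SE 0.21) with IL-17A, -0.62 (SE 0.22) with IL-36γ and -1.15 (SE 0.22) with both, the last a change of -54.8%. The value for IL-36γ rests in part on IL-36γ replicate 3, without which it was -0.93.

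CLOCK is the usual partner of BMAL1. Its gene Clock (ENSMUSG00000029238, chr5:76209868-76304792, minus strand) varied little. It measured 183, 169 and 172 CPM in PBS, 198, 200.2 and 189 in IL-17A, 158, 179 and 180.2 in IL-36γ, and 177, 183 and 165 in IL-17A + IL-36γ. The IL-17A libraries were the highest and the other groups overlapped. The log2 difference from PBS was 0.17 (SE 0.07) with IL-17A, -0.02 (SE 0.07) with IL-36γ and 0.00 (SE 0.07) with both. The difference with IL-17A became -0.01 when libraries were scaled by their size alone, a scaling that shifted the median of all tested genes by -0.17 in this comparison, and the sign of the other 2 differences also changed between alternatives.

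Among the Per genes, which encode the inhibitors of the BMAL1 pair, Per2 and Per3 were lower in every cytokine group and lowest after IL-17A alone. Per2 (ENSMUSG00000055866, chr1:91415982-91459324, minus strand) had 32.7, 39.5 and 38.9 CPM in PBS, 17.5, 18.6 and 23.7 in IL-17A, 26.0, 27.6 and 22.4 in IL-36γ, and 26.5, 32.5 and 25.1 in IL-17A + IL-36γ. Every cytokine library was below every PBS library, IL-17A lay below the combination, and IL-36γ overlapped with both of them. The log2 difference from PBS was -0.89 (SE 0.14) with IL-17A, a change of -46.2%, -0.55 (SE 0.13) with IL-36γ and -0.40 (SE 0.13) with both.

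Per3 (ENSMUSG00000028957, chr4:151003652-151044665, minus strand), whose promoter holds both printed D-boxes, followed the same order. Its levels were 159, 175 and 187 CPM in PBS, 86.2, 101 and 123 in IL-17A, 109, 122 and 123 in IL-36γ, and 123, 141 and 125 in IL-17A + IL-36γ. The PBS libraries stood above all others, IL-17A lay just below the combination, and IL-36γ overlapped with both. Its log2 difference from PBS was -0.75 (SE 0.12) with IL-17A, -0.55 (SE 0.12) with IL-36γ and -0.42 (SE 0.12) with both. Per1 (ENSMUSG00000020893, chr11:69095217-69109960, plus strand), which is also induced by glucocorticoids and other acute signals, had 83.5, 117 and 106 CPM in PBS. It had 72.0, 80.3 and 75.3 CPM in IL-17A, 75.7, 72.6 and 84.8 in IL-36γ, and 62.5, 81.6 and 81.8 in IL-17A + IL-36γ. The cytokine groups overlapped with each other, and PBS replicate 1 was within the IL-36γ range. The log2 differences of Per1 from PBS were of like size in the 3 cytokine groups, -0.43 (SE 0.13), -0.40 (SE 0.13) and -0.44 (SE 0.13) for IL-17A, IL-36γ and both.

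The repressor Nr1d1 (ENSMUSG00000020889, chr11:98767932-98775333, minus strand), which encodes REV-ERBα, was lower in each group in turn, in the order PBS, IL-17A, IL-36γ and both. It had 96.5, 95.6 and 96.0 CPM in PBS, 89.1, 86.7 and 83.4 in IL-17A, 78.1, 59.8 and 78.2 in IL-36γ, and 57.1, 51.5 and 61.7 in IL-17A + IL-36γ. Neighbouring groups in this order did not overlap except IL-36γ and the combination. The log2 difference from PBS was -0.15 (SE 0.10) with IL-17A, -0.42 (SE 0.10) with IL-36γ and -0.76 (SE 0.10) with both, the last a change of -40.9%. Its paralog Nr1d2 (ENSMUSG00000021775, chr14:18204054-18239127, minus strand) had 171, 199 and 205 CPM in PBS, 153, 161 and 161 in IL-17A, 172, 150.1 and 151 in IL-36γ, and 125, 149 and 160.2 in IL-17A + IL-36γ. The cytokine groups overlapped, and only IL-36γ also overlapped with PBS. The log2 differences were -0.28 (SE 0.10), -0.28 (SE 0.10) and -0.40 (SE 0.10).

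The D-box activators Dbp and Tef, both read as outputs of the clock, were lower by a similar amount in all cytokine groups. Dbp (ENSMUSG00000059824, chr7:45705088-45710203, plus strand) had 102, 91.6 and 105 CPM in PBS, 59.6, 64.2 and 84.0 in IL-17A, 88.7, 67.6 and 67.3 in IL-36γ, and 63.3, 66.5 and 68.6 in IL-17A + IL-36γ. All PBS libraries lay above all cytokine libraries, and the cytokine groups overlapped. The log2 difference from PBS was -0.53 (SE 0.13), -0.42 (SE 0.13) and -0.59 (SE 0.13) for IL-17A, IL-36γ and both. Tef (ENSMUSG00000022389, chr15:81802421-81826863, plus strand) had 319, 310.2 and 339 CPM in PBS, 188, 228 and 286 in IL-17A, 249, 228 and 242 in IL-36γ, and 223, 225 and 219 in IL-17A + IL-36γ. Again PBS was highest, and the IL-17A libraries spread over the ranges of the other cytokine groups. The log2 differences of Tef were -0.47 (SE 0.12), -0.43 (SE 0.12) and -0.54 (SE 0.12), and without IL-17A replicate 3 the first was -0.63.

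**Figure D2:**
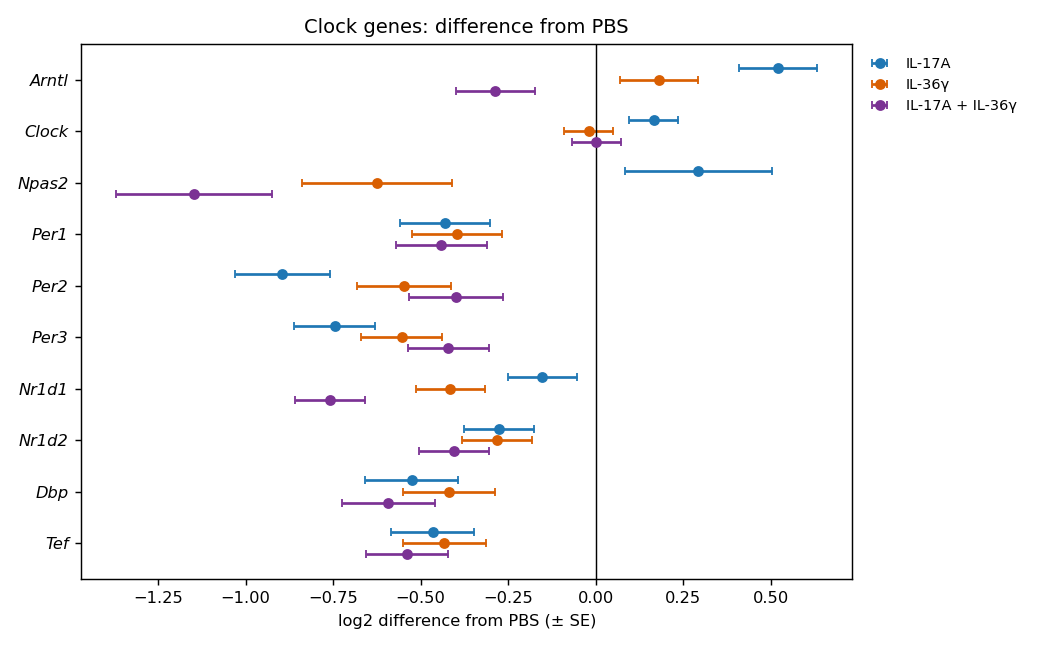
Log2 difference of each of the 10 clock genes from PBS (horizontal axis, with the SE from the model of all 12 libraries as bar) in the 3 cytokine groups. Arntl lies at 0.52 with IL-17A and at -0.29 with both, Npas2 reaches -1.15 with both, and the Per, Nr1d and D-box genes lie below 0 in every group.

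All differences from PBS except that of Npas2 with both were smaller than a log2 of 1, the fold threshold of the study. With an adjusted p below 0.05 and this fold, 0 of the 10 genes were called with IL-17A (2.10% of all tested genes were called), 0 with IL-36γ (7.10%) and 1, Npas2, with both (13.4%). Without the fold threshold, 1 gene was called higher with IL-17A (7.44% of all tested genes) and 4 lower (3.49%). With IL-36γ, 0 were called higher (17.3%) and 7 lower (11.1%), and with both, 0 were called higher (23.7%) and 8 lower (20.9%). These calls come from edgeR's quasi-likelihood test and, because the genes were chosen with these comparisons known, nothing is read from the shares. The rule without the fold was chosen after the data were seen. At an unadjusted p below 0.05, edgeR had 2 higher and 6 lower with IL-17A (19.0% and 12.0% of all tested genes), 0 and 8 with IL-36γ (23.1% and 18.8%), and 0 and 9 with both (26.8% and 25.5%). DESeq2 called 1 higher and 6 lower with IL-17A (5.64% and 3.06% of the genes it tested), 0 and 8 with IL-36γ (10.4% and 7.03%), and 0 and 9 with both (14.1% and 11.8%). With libraries scaled by size alone, 0 were called higher and 7 lower with IL-17A, and this scaling moved the share of all tested genes to 2.51% higher and 10.3% lower. Without PBS replicate 3, 0 members were called lower with IL-17A (0.0102% of all tested genes) and 3 with IL-36γ (4.97%), whereas without PBS replicate 1 the counts were 6 (7.93%) and 7 (15.5%). Without PBS replicate 2, 2 were called lower with IL-17A (0.270%), and without IL-36γ replicate 2, 3 were called lower with IL-36γ (5.36%).

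Counting libraries that do not overlap describes the same libraries and the same chosen genes in another way, and adds no support to the calls. With IL-17A, 7 of the 10 genes had all 3 libraries below all PBS libraries (14.0% of all tested genes) and 2 had all above (19.6%). With IL-36γ the counts were 6 below (19.2%) and 0 above (22.4%), and with both 9 below (25.6%) and 0 above (27.0%). The median log2 difference of the 10 genes was -0.35 with IL-17A, -0.42 with IL-36γ and -0.43 with both, beside 0.04, -0.02 and -0.03 over all tested genes. All 3 comparisons share the PBS libraries.

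Ears given IL-36γ with IL-17A had less Arntl, Npas2 and Nr1d1 RNA and more Per2 and Per3 RNA than ears given IL-17A alone. Between the IL-17A + IL-36γ and the IL-17A ears, the log2 difference was -0.81 (SE 0.11) for Arntl, -1.44 (SE 0.22) for Npas2 and -0.61 (SE 0.10) for Nr1d1, and 0.49 (SE 0.14) for Per2 and 0.32 (SE 0.12) for Per3. These were the 3 genes called lower (17.7% of all tested genes) and the 2 called higher (15.1%) at an adjusted p below 0.05. With the fold threshold 1 gene, Npas2, was called (8.95%). Dbp and Tef differed little, with -0.07 (SE 0.13) and -0.07 (SE 0.12), and without IL-17A replicate 3 these values were 0.09 and 0.10. The calls of Per2 and Per3 were both lost without IL-17A replicate 1, without IL-17A replicate 2 and without IL-17A + IL-36γ replicate 2. There 0 of the 10 genes were called higher, beside 13.4%, 10.1% and 12.4% of all tested genes. Of 19 alternatives, 16 kept the call of Per2 and 9 that of Per3.

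Ears given IL-17A with IL-36γ were closer to ears given IL-36γ alone. The log2 difference between the IL-17A + IL-36γ and the IL-36γ ears was -0.47 (SE 0.11) for Arntl, -0.52 (SE 0.23) for Npas2 and -0.34 (SE 0.10) for Nr1d1, and between -0.17 and 0.15 for the other members. For 3 of the 10 genes, Arntl, Npas2 and Tef, all libraries with both lay below all IL-36γ libraries (11.3% of all tested genes), and for 0 above (9.33%). By edgeR 0 of the 10 genes were called, and over all tested genes 0% were called higher, 0.0206% lower and 0.0103% with the fold threshold. At an unadjusted p below 0.05, 3 of the 10 were lower (9.54% of all tested genes) and 0 higher (5.60%), and DESeq2 called 2 lower, Arntl and Nr1d1 (1.15% of the genes it tested). Same-numbered libraries of these 2 groups deviated together in all 3 pairs, with correlations of 0.13 to 0.24. Single same-numbered pairs in other comparisons reached 0.35, and no pairing is given in the sources used here. With the number as a block in a fit of these 2 groups, chosen after the data were seen, 2 were called lower, again Arntl (log2 difference -0.46) and Nr1d1 (-0.34), beside 2.74% of all genes in that fit. In the fit of all 12 libraries with the block 0 were called. Nr1d1 was lower in each same-numbered pair, although the ranges of the groups overlap. Without IL-36γ replicate 3 the value of Npas2 was -0.21 and that of Arntl -0.33.

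For Arntl, Per2 and Per3 the log2 difference between ears with and without IL-17A was not the same with and without IL-36γ. For Arntl it was 0.52 without IL-36γ and -0.47 with it, so the value with IL-36γ minus that without it, the interaction term, was -0.99 (SE 0.16). For Per2 the log2 differences were -0.89 and 0.15, an interaction term of 1.04 (SE 0.19), and for Per3 they were -0.75 and 0.13, a term of 0.88 (SE 0.16). Npas2 had a term of -0.81 (SE 0.31), which was -0.50 without IL-36γ replicate 3, and the others lay between -0.19 and 0.39. In this interaction term 2 of the 10 genes were called higher (0.129% of all tested genes, 25 genes) and 1 lower (0.423%, 82 genes) at an adjusted p below 0.05, which is a description of genes chosen with these libraries known. The calls were lost when libraries were scaled by size alone, where 0 were called in either direction (0.00515% and 0.0103% of all tested genes), and most single libraries mattered. Of the 12 libraries left out in turn, 9 ended the call of Arntl, 8 that of Per2 and 9 that of Per3. DESeq2-type size factors also ended the calls of Per2 and Per3. Without PBS replicate 3, for example, the terms were -0.90 for Arntl, 1.02 for Per2 and 0.84 for Per3 and none was called. The sign of all 3 was kept in all 18 alternatives of this comparison.

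**Figure D3:**
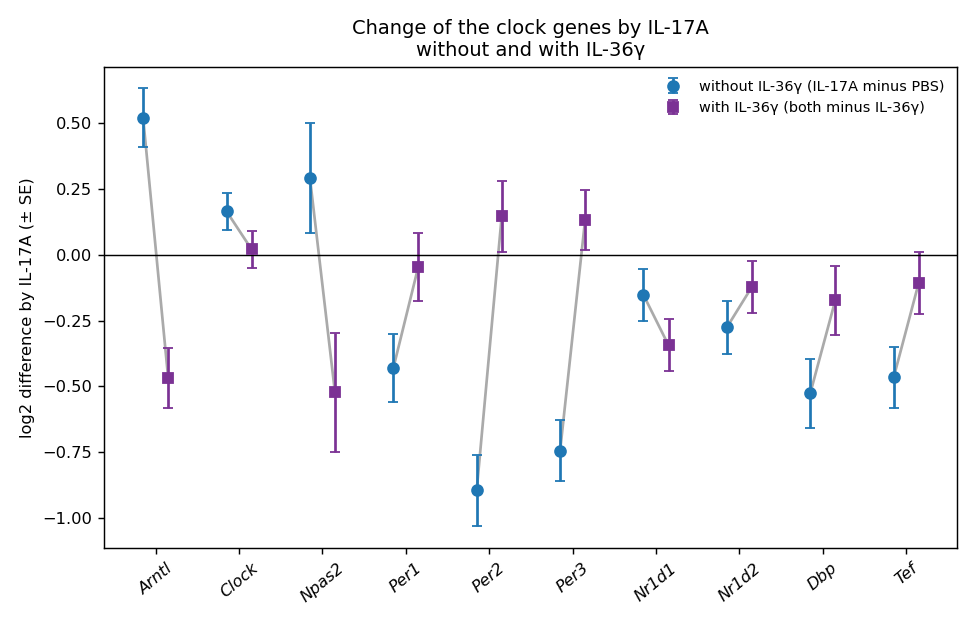
Log2 difference between ears with and without IL-17A for each clock gene (vertical axis), without IL-36γ (circles, IL-17A minus PBS) and with IL-36γ (squares, both minus IL-36γ), with the SE as bar. Arntl passes from 0.52 to -0.47, Per2 from -0.89 to 0.15 and Per3 from -0.75 to 0.13, while Clock passes from 0.17 to 0.02.

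The ratio of Arntl to Per2 counts in the same library needs no scaling between libraries. It was 1.09, 0.794 and 0.726 in PBS, 2.57, 2.44 and 1.95 in IL-17A, 1.34, 1.11 and 1.89 in IL-36γ, and 0.963, 0.758 and 1.11 in IL-17A + IL-36γ. The IL-17A libraries lay above all others, and those of PBS and IL-17A + IL-36γ covered nearly the same range. The ratio of Arntl to Per3 had means of 0.185 ± 0.0364 in PBS, 0.448 ± 0.0732 in IL-17A, 0.305 ± 0.0463 in IL-36γ and 0.202 ± 0.0246 in IL-17A + IL-36γ (SD, n = 3). The ratios of Arntl to Nr1d1 and to Dbp had another pattern and were higher than PBS in all cytokine groups. That to Nr1d1 was 0.330 ± 0.0370 in PBS, with 0.527 ± 0.0242, 0.500 ± 0.0488 and 0.459 ± 0.0169 in IL-17A, IL-36γ and both (SD, n = 3). That to Dbp was 0.268 to 0.348 in PBS, and 0.550 to 0.755, 0.392 to 0.628 and 0.370 to 0.405 in the same order. The ratio of Arntl to Clock had means of 0.181 ± 0.0152 in PBS, 0.233 ± 0.0100 in IL-17A, 0.209 ± 0.0326 in IL-36γ and 0.149 ± 0.0176 with both (SD, n = 3).

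**Figure D4:**
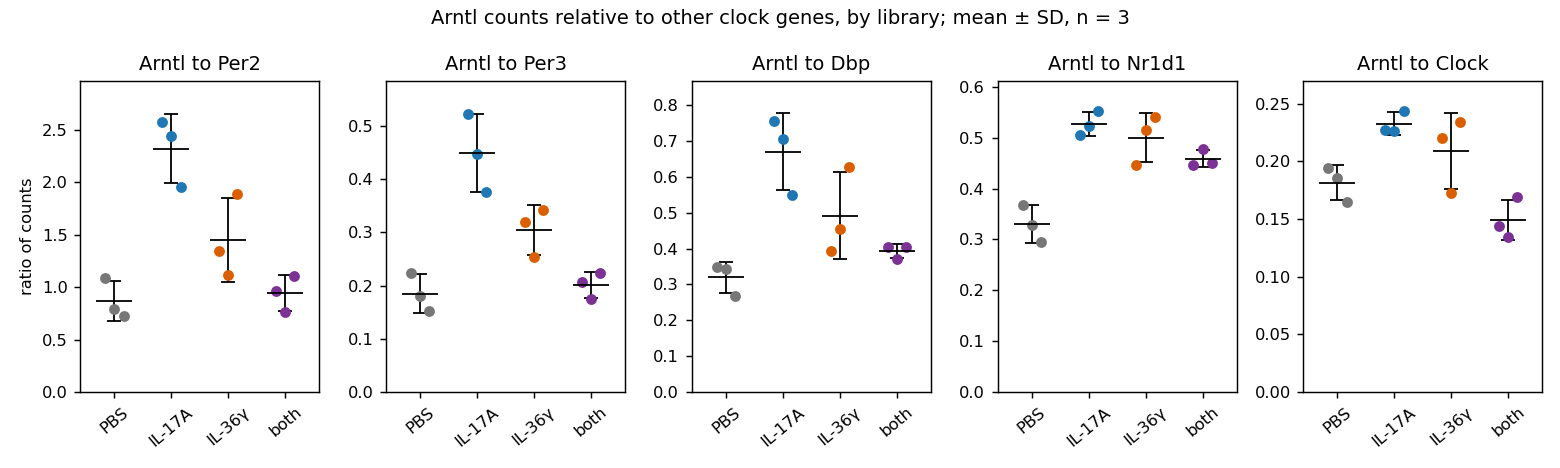
Ratio of Arntl counts to the counts of 5 other clock genes in each library (points) with the group mean (black line) and SD (bar), on linear axes that start at 0. The Arntl to Per2 ratio is 1.95 to 2.57 in the IL-17A libraries and 0.758 to 1.11 with IL-17A + IL-36γ, beside 0.726 to 1.09 in PBS.

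Of the list of 20 other clock genes, most passed the adjusted p with both cytokines and fewer with each cytokine alone. The list was drawn up with earlier results known, so its p-values are a description. At an adjusted p below 0.05 (edgeR quasi-likelihood test, adjusted over all genes tested), 3 fell and 0 rose with IL-17A (3.49% and 7.44% of all tested genes), 8 fell and 0 rose with IL-36γ (11.1% and 17.3%), and 10 fell and 2 rose with both (20.9% and 23.7%). Those that did not pass were 17, 12 and 8 of the 20. At an unadjusted p below 0.05, 1 was higher with IL-17A (19.0% of all tested genes) and 2 with IL-36γ (23.1%), and DESeq2 called 1 (Nfil3) and 0 (5.64% and 10.4% of the genes it tested). With the fold threshold as well, 0 were called with IL-17A, 0 with IL-36γ and 3 (Bhlhe41, Klf9 and Tsc22d3) with both, where 13.4% of all tested genes were called, a share close to that of the list. The median log2 difference over the list was -0.23, -0.21 and -0.27 in the 3 comparisons, beside 0.04, -0.02 and -0.03 over all tested genes.

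Of the further repressors, Ciart, Cry2 and Bhlhe41 fell in all 3 comparisons. Ciart, an inhibitor of the BMAL1 pair whose promoter with 3 E-boxes is printed above, had 30.2, 24.0 and 27.0 CPM in PBS and 10.03, 13.0 and 19.6 in IL-17A. It had 15.9, 14.99 and 15.6 CPM in IL-36γ and 17.1, 17.4 and 15.2 in IL-17A + IL-36γ, so every cytokine library lay below every PBS library. Its log2 difference was -0.93 (SE 0.19, adjusted p = 0.019) with IL-17A, -0.80 (SE 0.18, adjusted p = 0.00795) with IL-36γ and -0.71 (SE 0.18, adjusted p = 0.00881) with both. Bhlhe41, which encodes the E-box repressor DEC2, fell by 0.50 (SE 0.12, adjusted p = 0.0325), 0.81 (SE 0.13, adjusted p = 0.000893) and 1.07 (SE 0.13, adjusted p = 7.67e-05) on the log2 scale. Cry2, a partner of the PER proteins, fell by 0.32 (SE 0.09, adjusted p = 0.0483), 0.34 (SE 0.09, adjusted p = 0.0195) and 0.51 (SE 0.09, adjusted p = 0.00109). Its paralog Cry1 had mean levels of 22.7 ± 5.15 CPM in PBS and 20.7 ± 4.56 with both (SD, n = 3), a log2 difference of -0.14 (SE 0.20, adjusted p = 0.605). Bhlhe40, the paralog of Bhlhe41, likewise passed in no comparison with PBS (adjusted p of 0.367, 0.626 and 0.844). The 3 calls with IL-17A were all lost without PBS replicate 3, without IL-17A replicate 1 and without IL-17A replicate 2, and their adjusted p over all alternatives reached 0.147 for Cry2, 0.0911 for Ciart and 0.139 for Bhlhe41. With IL-36γ the call of Cry2 was lost without PBS replicate 2, without PBS replicate 3 and without IL-36γ replicate 2, with an adjusted p of up to 0.077.

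Hlf, the third of the D-box activators beside Dbp and Tef, passed the test with IL-36γ and with both but not with IL-17A. It measured 93.9, 92.2 and 99.7 CPM in PBS, 96.1, 85.2 and 96.0 in IL-17A, 73.4, 61.9 and 80.9 in IL-36γ, and 43.7, 51.0 and 50.4 in IL-17A + IL-36γ. PBS and IL-17A overlapped, IL-36γ lay below them and the combination below IL-36γ. The log2 difference from PBS was -0.04 (SE 0.10, adjusted p = 0.792) with IL-17A, -0.40 (SE 0.10, adjusted p = 0.0105) with IL-36γ and -0.98 (SE 0.10, adjusted p = 3.11e-05) with both. The D-box repressor Nfil3 rose with both, from 5.20, 6.88 and 5.46 CPM in PBS to 9.48, 8.56 and 9.70, with a log2 difference of 0.66 (SE 0.17, adjusted p = 0.0069). With IL-17A and IL-36γ alone its differences were 0.50 (SE 0.17, adjusted p = 0.0676) and 0.42 (SE 0.17, adjusted p = 0.0749).

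Among the regulators of protein stability, Fbxl21, which encodes a ligase subunit that acts on CRY proteins, fell with both (log2 difference -0.51, SE 0.19, adjusted p = 0.0435). Btrc, a ligase subunit that acts on PER proteins, fell by 0.31 (SE 0.10, adjusted p = 0.0394) with IL-36γ and by 0.38 (SE 0.10, adjusted p = 0.0101) with both. Nampt, a clock-controlled enzyme of NAD synthesis, rose with both by 0.32 (SE 0.10, adjusted p = 0.0244). Klf9 and Tsc22d3, transcriptional regulators that respond to the clock and to glucocorticoids, fell with IL-36γ by 0.66 (SE 0.20, adjusted p = 0.0273) and 0.73 (SE 0.25, adjusted p = 0.0468), and with both by 1.18 (SE 0.20, adjusted p = 0.00067) and 1.04 (SE 0.25, adjusted p = 0.00558). The weaker of these calls depended on single libraries or settings. Over the alternatives the adjusted p reached 0.16 for Fbxl21 and 0.173 for Nampt with both, and 0.149 for Btrc, 0.117 for Klf9 and 0.206 for Tsc22d3 with IL-36γ. That of Btrc with both was 0.0515 without PBS replicate 2.

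**Figure D5:**
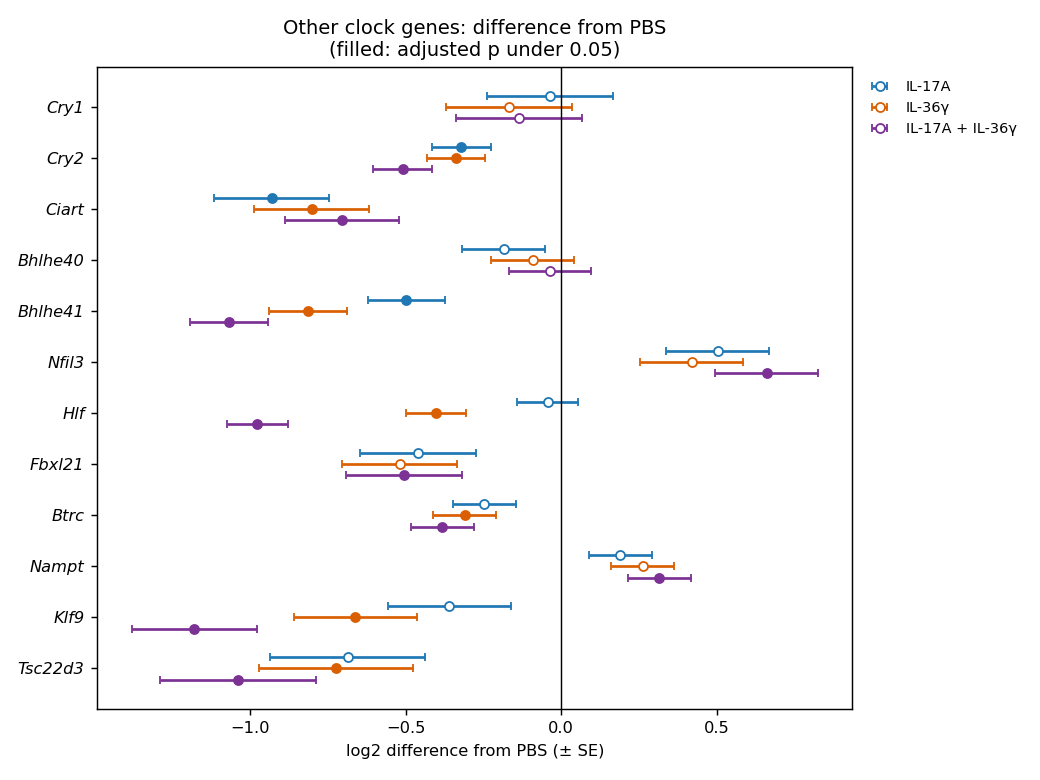
Log2 difference from PBS of the 12 other clock genes described in the text (horizontal axis, SE as bar) with IL-17A, with IL-36γ and with both cytokines, filled where the adjusted p is below 0.05. With both cytokines 8 of these 12 fell and 2 (Nfil3 and Nampt) rose, and Hlf lies at -0.04, -0.40 and -0.98 in the 3 groups.

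Between the IL-17A + IL-36γ and the IL-17A ears, 4 of the 20 genes fell and 0 rose, beside 17.7% and 15.1% of all tested genes, so the share that fell was close to that of all genes. Among them were Hlf (log2 difference -0.93, SE 0.10, adjusted p = 0.000158), Klf9 (-0.82, SE 0.20, adjusted p = 0.00904) and Bhlhe41 (-0.57, SE 0.13, adjusted p = 0.00564). At an unadjusted p below 0.05, 2 were higher (20.2% of all tested genes), and DESeq2 called 2 higher (Csnk1d and Wee1, beside 9.35%). Between the IL-17A + IL-36γ and the IL-36γ ears edgeR called 0 of the 20, with 3 lower (9.54% of all tested genes) and 0 higher (5.60%) at an unadjusted p below 0.05, and DESeq2 called 1 lower (Hlf, beside 1.15%). The fit of these 2 groups with the replicate number as a block also called 1 lower (Hlf, beside 2.74%). In the interaction term edgeR called 0 of the 20, with 2 higher (8.58% of all tested genes) and 1 lower (13.9%) at an unadjusted p below 0.05, and DESeq2 called 1 higher (Ciart, beside 1.39%) and 1 lower (Hlf, beside 2.29%). Ciart had an interaction term of 1.03 (SE 0.26, adjusted p = 0.0705) and Hlf of -0.53 (SE 0.14, adjusted p = 0.0744).

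In 4 members the exons share bases with a gene on the opposite strand in the GENCODE annotation, and the strand setting of the read counting is not given in the sources used here. Nr1d1 shares 263 bases, 8.55% of its exon bases, with Thra, which encodes a thyroid hormone receptor. Thra fell with both by 0.52 on the log2 scale (SE 0.08, adjusted p = 0.00029) and had -0.00 (SE 0.08, adjusted p = 0.975) with IL-17A and -0.17 (SE 0.08, adjusted p = 0.108) with IL-36γ. Its mean level was 80.0 ± 2.95 CPM in PBS and 55.9 ± 1.98 with both (SD, n = 3). Dbp shares 539 bases (18.0%) with Sphk2, a sphingosine kinase gene, whose log2 differences from PBS were 0.07 (SE 0.07), 0.17 (SE 0.07) and 0.02 (SE 0.07). Tef shares 193 bases (2.45%) with Gm17597, whose mean level lay between 0.149 and 0.499 CPM in the groups. The log2 differences of Gm17597 from PBS were -1.73 (SE 0.48), -0.80 (SE 0.42) and -0.07 (SE 0.39) for IL-17A, IL-36γ and both. Their adjusted p by edgeR's quasi-likelihood test was 0.0433, 0.165 and 0.902. Arntl shares 33 bases (0.439%) with Gm45355, which had a count of 0 in every library, which allows up to 3 counts per library. The part that reads of these partners have in the 4 members was not tested.

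Genes of other cell types and of stress responses also differed between the groups, and their summed levels are given as the range over the 3 libraries of each group. Here and in the next paragraph, genes rose or fell against PBS at an adjusted p below 0.05 by edgeR. Of all tested genes, 7.44%, 17.3% and 23.7% rose with IL-17A, IL-36γ and both, and 3.49%, 11.1% and 20.9% fell. The summed level comes first for skeletal muscle. For 10 skeletal muscle genes it was 293 CPM in PBS replicate 1 and 2423 and 2866 in the other PBS libraries, 1955 to 2533 in IL-17A, 937 to 1869 in IL-36γ and 168 to 1079 with both, where 1 of 10 fell. Of 8 adipocyte genes 8 fell with both, and their ranges were 360.5 to 535 CPM in PBS, 432 to 758 in IL-17A, 208 to 423 in IL-36γ and 101 to 234 with both. The 6 cartilage genes, of which 5 were tested and 5 fell with both, had 201 to 281, 179.7 to 302, 153 to 196 and 109 to 144 CPM in the same order. The 6 fibroblast genes had 8731 to 10652, 8469 to 13345, 7284 to 7923 and 6542 to 8025 CPM, and 2 fell with both. Defining genes of keratinocytes were present in all libraries. Their summed level was 13954 to 19691 CPM in PBS, 19673 to 21403 in IL-17A, 24041 to 32442 in IL-36γ and 30177 to 35978 with both, and 2, 5 and 3 of the 7 rose in the cytokine groups. Of 7 macrophage genes 7 rose in each cytokine group (540.2 to 626, 806 to 1139, 1277 to 1412 and 1154 to 1249 CPM), and of 7 neutrophil genes 3, 5 and 6 rose (98.4 to 116, 136.7 to 175, 160.1 to 168 and 159 to 281 CPM). Of 6 proliferation genes 6 rose with IL-36γ and 6 with both (319.9 to 645, 563 to 703, 1087 to 1258 and 1439 to 1635 CPM). Of 5 red blood cell genes 5 rose with IL-17A (61.5 to 104, 129.8 to 331, 82.0 to 147 and 63.6 to 120.3 CPM). In PBS ears 1 of the 7 neutrophil and 1 of the 6 cartilage genes had a mean of at most 3 counts.

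Of 9 immediate early genes 4 rose with IL-17A, 6 with IL-36γ and 3 with both, and 0, 1 and 1 fell (290.7 to 320.3, 427 to 932, 613 to 697 and 382 to 616 CPM). Of 7 glucocorticoid response genes, a list that includes Per1, Klf9 and Tsc22d3, 2 rose with IL-17A, 4 fell and 1 rose with IL-36γ, and 5 fell and 1 rose with both (638 to 1046, 727 to 835, 643 to 789 and 585 to 657 CPM). Several of them were low in PBS replicate 1. Tsc22d3 had 172 CPM in this library and 432 and 355 in the other PBS libraries, Klf9 had 70.8 beside 132 and 115, Zbtb16 had 22.0 beside 55.7 and 42.3, and Per1 had 83.5 beside 117 and 106. Fkbp5 had 43.8 beside 66.0 and 53.3. Sgk1 and Dusp1 were not low in this library, with 203 CPM beside 199.8 and 185, and 42.9 beside 42.5 and 35.1. PBS replicate 1 also had the lowest muscle level and the highest Arntl level of the PBS group. Its summed proliferation level was 645 CPM beside 320 and 330 in PBS replicates 2 and 3. The summed keratinocyte level was 19691 CPM in PBS replicate 1 beside 14186 and 13954. Without PBS replicate 1, 7 of the 20 other clock genes fell with IL-17A (7.93% of all tested genes), 9 with IL-36γ (15.5%) and 9 with both (23.4%). The counts of members are given above. The part of these cell types and responses in the differences of the clock genes was not tested.

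The genes with the pattern most like a member were found by Pearson's r of log2 CPM over the 12 libraries. For Arntl these were Ovol2 (r = 0.976), Ano6 (0.938), Ctdsp2 (0.933), Abhd4 (0.931) and Glud1 (0.930), and 0 of these 5 are clock genes of the lists used here. Ovol2, a transcription factor gene of the epidermis, had 3.17 ± 0.452 CPM in PBS, 4.32 ± 0.128 in IL-17A, 3.41 ± 0.422 in IL-36γ and 2.71 ± 0.148 in IL-17A + IL-36γ (SD, n = 3). For Dbp the most similar gene of all tested was Tef (r = 0.939), followed by Rsad1 (0.921), Cul4a (0.914), Gm33378 (0.903) and Slc26a8 (0.901). Against Arntl, r was 0.76 for Npas2, 0.60 for Nr1d1, 0.58 for Clock, -0.68 for Per2 and -0.53 for Per3. It was near 0 for the other members, with 0.06 for Nr1d2, -0.07 for Tef, -0.09 for Dbp and -0.11 for Per1. These values describe 12 libraries in 4 groups, and the differences between groups are part of them.

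Within the groups, the deviations of each gene from its group mean do not contain the differences between treatments, so they could be tested. Over the 12 libraries, Arntl had r = -0.61 with Per2 (exact permutation test within groups, two-sided, p = 0.034, adjusted over 9 relations p = 0.306) and rho = -0.56 (exact p = 0.0772, adjusted p = 0.694). With Nr1d1 it had r = 0.66 (exact p = 0.14, adjusted p = 0.569, rho = 0.50, exact p = 0.201) and with Npas2 r = 0.61 (exact p = 0.19, adjusted p = 0.569, rho = 0.44, exact p = 0.274). The other 6 relations had r between -0.21 and 0.11 with adjusted exact p of at least 0.963. None of the 9 relations passed an adjusted p of 0.05, and the smallest p that the permutations can give is 0.000772. Of all tested genes, 1.97% had an r with Arntl at least as far below 0 as Per2. Without the 2 libraries farthest from the median of Arntl, IL-36γ replicates 2 and 3, r was -0.51 with Per2, 0.29 with Nr1d1 and -0.00 with Npas2, so the relation with Npas2 rests on those libraries. The r with Arntl was below 0 for 4 of the 7 Per, Nr1d and D-box genes.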

How the data were processed

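RNA from a part of the ear of 12 mice, 3 per group, was measured by RNA-Seq from stranded total RNA libraries. Reads were aligned by the authors to mm10 with STAR 2.5.2b and counted with featureCounts (Subread 1.5.1), and the deposited table holds these counts per Ensembl gene, not normalized. The authors also deposited tables of their own comparisons (fold changes, p-values), of which only identifiers and symbols were used here. Groups were taken from the sample labels. Replicates within a group differed by more than sampling noise (chi-square per gene 6.56 to 58.4), and per the study's methods each is 1 mouse. The pairs with PBS replicate 1 had 58.4 and 45.2, beside 6.56 between PBS replicates 2 and 3. Those with IL-17A replicate 1 had 37.4 and 48.7, beside 8.46 between IL-17A replicates 2 and 3. Pairs within IL-36γ and within both had 19.6 to 24.2. The strand setting of the counting is not given in the sources used here.

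Genes with enough reads (edgeR's filterByExpr, minimum count 10) were scaled by TMM and tested in R 4.3.3 with the quasi-likelihood test of edgeR 4.0.16, in 1 fit of 12 libraries with 4 group means, and p-values were adjusted by Benjamini-Hochberg over the 19408 genes tested. Calls used an adjusted p below 0.05 with a log2 difference above 1 or, chosen after the data were seen, without it. The interaction was called at an adjusted p below 0.05. The fit was also run on simulated data, in which only the IL-17A + IL-36γ group was changed, by more than any member difference given here. That run therefore does not cover differences of the size described, or those of a single cytokine from PBS. Same-numbered libraries had correlated deviations (over 0.1) in all 3 pairs only between IL-36γ and both (0.128 to 0.240), so there the block was also used in a fit of these groups. Within-group correlations used log2 CPM with a prior count of 2. Alternatives were DESeq2 1.42.0 (likelihood ratio test), other scalings and filters, only the groups compared, the replicate number as a block and each library left out. The members and all gene lists were chosen with earlier results of these data known. The text names all 10 members, other clock genes called in any comparison (some are counted but not reported here by name), 6 further ones in any case (Cry1, Cry2, Nfil3, Ciart, Bhlhe40 and Hlf), genes overlapping a member and the 5 genes most like Arntl and Dbp. Positions and exon lengths are from GENCODE vM21 (GRCm38), promoters from RefSeq.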

Additional observations from a re-analysis of the deposited data

Results flagged for a closer look

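The difference between ears with and without IL-17A was unlike with and without IL-36γ for 3 of the 10 clock genes. The genes were chosen with results of these libraries known, so their interaction terms are a description and support nothing. The log2 difference with IL-36γ minus that without it was -0.988 for Arntl, 1.04 for Per2 and 0.878 for Per3. For Arntl the direction turned as well, since all 3 IL-17A libraries lay above all PBS libraries and all 3 IL-17A + IL-36γ libraries lay below all IL-36γ libraries. The second of these differences, a log2 of -0.47, was not called in the filtered fit of all 12 libraries. It was -0.33 without IL-36γ replicate 3. Over all tested genes, 25 passed with a positive and 82 with a negative interaction term. The calls depended on single libraries. Without PBS replicate 3 the values were -0.896, 1.02 and 0.838 and none passed, without IL-17A + IL-36γ replicate 2 they were -0.909, 0.966 and 0.857 and none passed, and without PBS replicate 1 they were -1.08, 1.12 and 0.934 and all passed. None passed either without PBS replicate 2, IL-17A replicate 1 or 2, IL-36γ replicate 1 or 3, or IL-17A + IL-36γ replicate 1, with values of -0.843 to -0.978 for Arntl, 0.974 to 1.10 for Per2 and 0.805 to 0.924 for Per3. Without IL-17A replicate 3 the call of Arntl alone was lost (-0.981), and without IL-17A + IL-36γ replicate 3 that of Per3 alone (0.923). Groups of 3 libraries are too small for a search for single outlying samples.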

How the results depend on the processing

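No member difference past the threshold changed its sign. Of 1140 alternative values of 60 member differences, 1115 moved by less than the spread within groups and 25 by more. Scaling by library size alone shifted the median of all genes by -0.17 with IL-17A, -0.15 with IL-36γ, -0.14 with both and 0.18 in the interaction. With IL-17A it gave 0 members higher and 7 lower without the fold threshold (2.51% and 10.3% of all tested genes). With the fold it gave 1 member lower and 1 of the other clock genes there. The share of all tested genes under that rule was not computed with this scaling, and was 2.10% with TMM. Without the fold, scaling by library size alone gave 1 member higher between both and IL-17A (16.3%), and 0 higher and 0 lower in the interaction (0.00515% and 0.0103%). DESeq2-type size factors gave 0 higher in the interaction (0.0412%). Fitting only the groups compared gave 0 higher and 0 lower with IL-17A (0.0906% and 0.0160%) and 1 higher between both and IL-17A (16.1%), with fewer libraries to estimate the spread. Dropping the fold threshold gave 1 higher and 4 lower members with IL-17A, 7 lower with IL-36γ, 8 lower with both, and 2 higher and 3 lower between both and IL-17A, and 3, 8, 12 and 4 of the other clock genes in these comparisons. Between both and IL-36γ, DESeq2 called 2 members lower (1.15% of the genes it tested) and the fit with no filter on low counts 1 (0.714%), without the fold. In the interaction DESeq2 called 2 other clock genes and the fit with no filter 1.

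Leaving out each library in turn, members called without the fold threshold ranged from 0 to 6 lower and 0 to 1 higher with IL-17A, from 3 to 8 and 0 to 0 with IL-36γ, from 6 to 9 and 0 to 0 with both, from 3 to 3 and 0 to 2 between both and IL-17A, and from 0 to 2 and 0 to 0 between both and IL-36γ. Over the same settings, 0.0102% to 7.93% of all tested genes were lower and 0.0965% to 15.2% higher with IL-17A. With IL-36γ the shares were 4.97% to 15.5% and 10.2% to 21.7%, and with both 14.4% to 23.4% and 18.2% to 25.8%. Between both and IL-17A they were 10.6% to 19.5% and 10.1% to 17.2%, and between both and IL-36γ 0% to 0.940% and 0% to 0.116%. With the fold, 0 to 1 members were lower with IL-17A, 1 to 1 lower with both and between both and IL-17A, and 0 to 0 in all others. The share of all tested genes called with the fold was not computed for each library left out. With all 12 libraries it was 2.10% with IL-17A, 7.10% with IL-36γ and 13.4% with both. It was 8.95% between both and IL-17A and 0.0103% between both and IL-36γ. In the interaction 0 to 2 members were higher and 0 to 1 lower (0% to 2.64% and 0.00505% to 5.13% of all tested genes). Relations of Arntl within groups past the threshold ranged from 0 to 0.

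The replicate block is the replicate number as a term in the fit of all 12 libraries. With it, 1 of the other clock genes was called lower in the interaction (2.54% of all tested genes). With IL-17A 5 members, Per1 added, were lower (6.29%). Member counts in the other comparisons were as without the block. Only between IL-36γ and both were all 3 correlations of deviations of same-numbered libraries over 0.1, at 0.13 to 0.24. There, fitting only the groups compared with the replicate block gave 2 members lower (2.74% of all genes in that fit). In the other comparisons at most 2 of the 3 pairs were over 0.1, with correlations from -0.20 to 0.35, and 8 of 12 libraries correlated best with their own number, a hint from the data and not the design. The depth of 25293468 to 34759293 reads was ample for the members, and 3 libraries per group limit the precision.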
